A study of Rattus norvegicus with 3 samples.

Results

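The Toll-like receptor genes Tlr2, Tlr3, Tlr4, Tlr5, Tlr7 and Tlr9, the lipopolysaccharide co-receptors Cd14 and Ly96, the adaptor Myd88 and the kinase Irak1 were followed on 3 two-colour rat arrays. These 10 genes were taken by the gene name printed beside each probe of the array, and all 10 had a probe, among 35494 gene names and 41012 different rat probes in all. The 3 samples, each labelled with Cy3, came from M13, a rat line of induced pluripotent stem (iPS) cells, which are made by returning differentiated cells to a pluripotent state. They had been grown untreated on irradiated mouse embryonic fibroblast feeders. Each array set 1 such sample against mix1, a single Cy5-labelled RNA mixture of 2 rat cultures, bone marrow cells and primary fibroblasts of the ear. The labels give neither the proportions of the mixture nor the age, sex or strain of the rats, and all iPS samples come from the 1 line.

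Toll-like receptors are membrane proteins that recognise molecules of microbes. Tlr2, Tlr4 and Tlr5 sense lipoproteins, lipopolysaccharide and flagellin at the cell surface, while Tlr3, Tlr7 and Tlr9 sense nucleic acids in endosomes. CD14 passes lipopolysaccharide to the complex of TLR4 and MD-2, the product of Ly96. Most of the receptors then signal through the adaptor MYD88 and IRAK kinases to NF-kappaB, whereas TLR3 uses another adaptor. Macrophages and other myeloid cells are the classic site of these receptors, and fibroblasts also carry several of them.

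The comparison asked how these transcripts differ between iPS M13 cells and the cultured cells of mix1. In iPS M13, 7 of the 10 genes were lower, namely Cd14, Tlr4, Tlr2, Tlr3, Tlr7, Myd88 and Ly96. None was called higher. Irak1 was measured in both RNAs and differed by less than the 2-fold needed for a call. Tlr5 and Tlr9 were too dim to be tested. A call required a Benjamini-Hochberg adjusted p under 0.05 in limma and at least a 2-fold difference, and by this rule 25.4% of the 20342 genes tested were lower in iPS M13 and 18.8% were higher, or 44.2% called in either direction.

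A probe was tested if the scanner software marked it well above background in the same RNA on all 3 arrays, which 8 of the 10 genes passed. In iPS M13, 6 of the 10 genes were well above background on all 3 arrays (Tlr2, Tlr3, Cd14, Ly96, Myd88 and Irak1), against 8 of 10 in mix1, which added Tlr4 and Tlr7. Tlr4 and Tlr7 thus passed through mix1 alone, so that only a lower call was open to them. That pattern, with mix1 above background on all 3 arrays and iPS M13 on none, was shown by 3.47% of all probes, and the opposite pattern by 3.06%. Both RNAs were above background on all 3 arrays for 45.9% of probes. Of the 6 genes measured in both RNAs, 5 were lower in iPS M13, where 21.8% of the 15770 tested genes measured in both RNAs were. Both RNAs hold whole populations of cells, so fewer cells of a type and less RNA per cell cannot be told apart.

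The array reads each gene through probes of 60 bases, of which Cd14 has 2 and the other genes 1 each. The 2 Cd14 probes are shown because they give separate readings of 1 gene, Tlr2 and Tlr7 as a receptor measured in both RNAs and one measured in mix1 alone, and Irak1 as the gene without a call. The letters run 5′ to 3′ as the scanner files give them, in lower case throughout since the whole probe binds.
Cd14 first probe: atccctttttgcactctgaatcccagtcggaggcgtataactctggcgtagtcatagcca
Cd14 second probe: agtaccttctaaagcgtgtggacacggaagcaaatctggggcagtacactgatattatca
Tlr2: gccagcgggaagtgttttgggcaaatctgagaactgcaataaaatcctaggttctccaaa
Tlr7: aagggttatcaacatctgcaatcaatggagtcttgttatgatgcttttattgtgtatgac
Irak1: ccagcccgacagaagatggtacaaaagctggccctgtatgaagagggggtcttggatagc

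In build rn3, by the positions in the files, the Cd14 probes lie on the minus strand at chr18:29401636-29401695 and chr18:29402416-29402475. The Tlr2 probe is placed on the minus strand at chr2:175558266-175558323, a span of fewer bases than the probe. The Tlr7 probe lies on the plus strand at chrX:47409636-47409695 and the Irak1 probe on the minus strand at chrX:160036250-160036309. Guanine and cytosine make up 50% and 45% of the Cd14 probes, 45% of the Tlr2 probe, 35% of the Tlr7 probe and 55% of the Irak1 probe. An annotation of rn3 was not used here, so whether a probe lies in coding sequence or an untranslated region is not given.

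Cd14, the co-receptor that hands lipopolysaccharide to TLR4, had the lowest ratio among the 6 genes of the set measured in both RNAs. The mean spot signal of its first probe was 426, 452 and 428 intensity units in iPS M13 on arrays 1, 2 and 3, against 42566, 46554 and 39496 in mix1. The RNAs did not overlap on any array, and the iPS M13 signal, though small, was still well above background on all 3. Its log2 ratio, iPS M13 over mix1, came to -7.49 ± 0.06 (SD, n = 3, limma adjusted p = 6.22e-07), and 0.408% of the genes tested had a lower ratio. The second probe read 131, 158 and 141 units in iPS M13, against 4962, 5728 and 5012 in mix1. Its log2 ratio of -5.95 ± 0.14 is limited by the iPS M13 signal, which no array had well above background. Both probes were called lower, the second as at least 49.1-fold lower (limma adjusted p = 2.04e-06 over all kept probes). In the scanner software's processed signals the probes gave -7.45 ± 0.07 and -7.42 ± 0.45 (SD, n = 3 each). With the offset of the background correction set to 0 they gave -7.68 ± 0.05 and -6.64 ± 0.24. Why the 2 probes differ was not tested.

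Tlr4, the lipopolysaccharide receptor itself, was bright in mix1 and at the level of background in iPS M13. Its spots read 103, 116 and 101 units in iPS M13, against 2655, 3069 and 2488 in mix1. The iPS M13 values lay below the 95th percentile of the negative control spots on arrays 1 and 3, and just above it on array 2. Those percentiles were 124, 113 and 144 units in the iPS M13 channel and 104, 98.5 and 108 in the mix1 channel. Tlr4 was at least 24.4-fold lower in iPS M13 (limma adjusted p = 9.15e-07, lower on 3 of 3 arrays). Its measured log2 ratio was -5.40 ± 0.07 (SD, n = 3), and a bound is given because iPS M13 was not well above background. Such a bound sets the brighter RNA's mean against the dimmer RNA's, which is taken on each array at no less than the lowest signal well above background.

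Ly96, which encodes the MD-2 subunit that binds lipopolysaccharide on TLR4, was measured in both RNAs. Its signals were 235, 255 and 238 units in iPS M13, against 521, 587 and 528 in mix1. All 3 mix1 values exceeded all 3 iPS M13 values, and the log2 ratio was -1.66 ± 0.08 (SD, n = 3, limma adjusted p = 1.13e-05). The bound on Tlr4 leaves its place relative to Cd14 unsettled. Across the genes tested, 16.4% had a lower ratio than Ly96.

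Tlr2, the receptor for bacterial lipoproteins, was lower in iPS M13 while still well above background there. It read 463, 529 and 527 units in iPS M13, against 7097, 8369 and 7479 in mix1. The spread within each RNA was small beside the gap between them, and the log2 ratio was -4.73 ± 0.04 (SD, n = 3, limma adjusted p = 6.24e-07), with 2.93% of tested genes lower. Cd14, Tlr4 and Tlr2 were each measured at least 16-fold lower, as were 4.15% of all genes tested. Tlr6, which pairs with TLR2, is named from the wider pathway list and had a log2 ratio of -3.17 ± 0.02 (SD, n = 3).

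**Figure D1:**
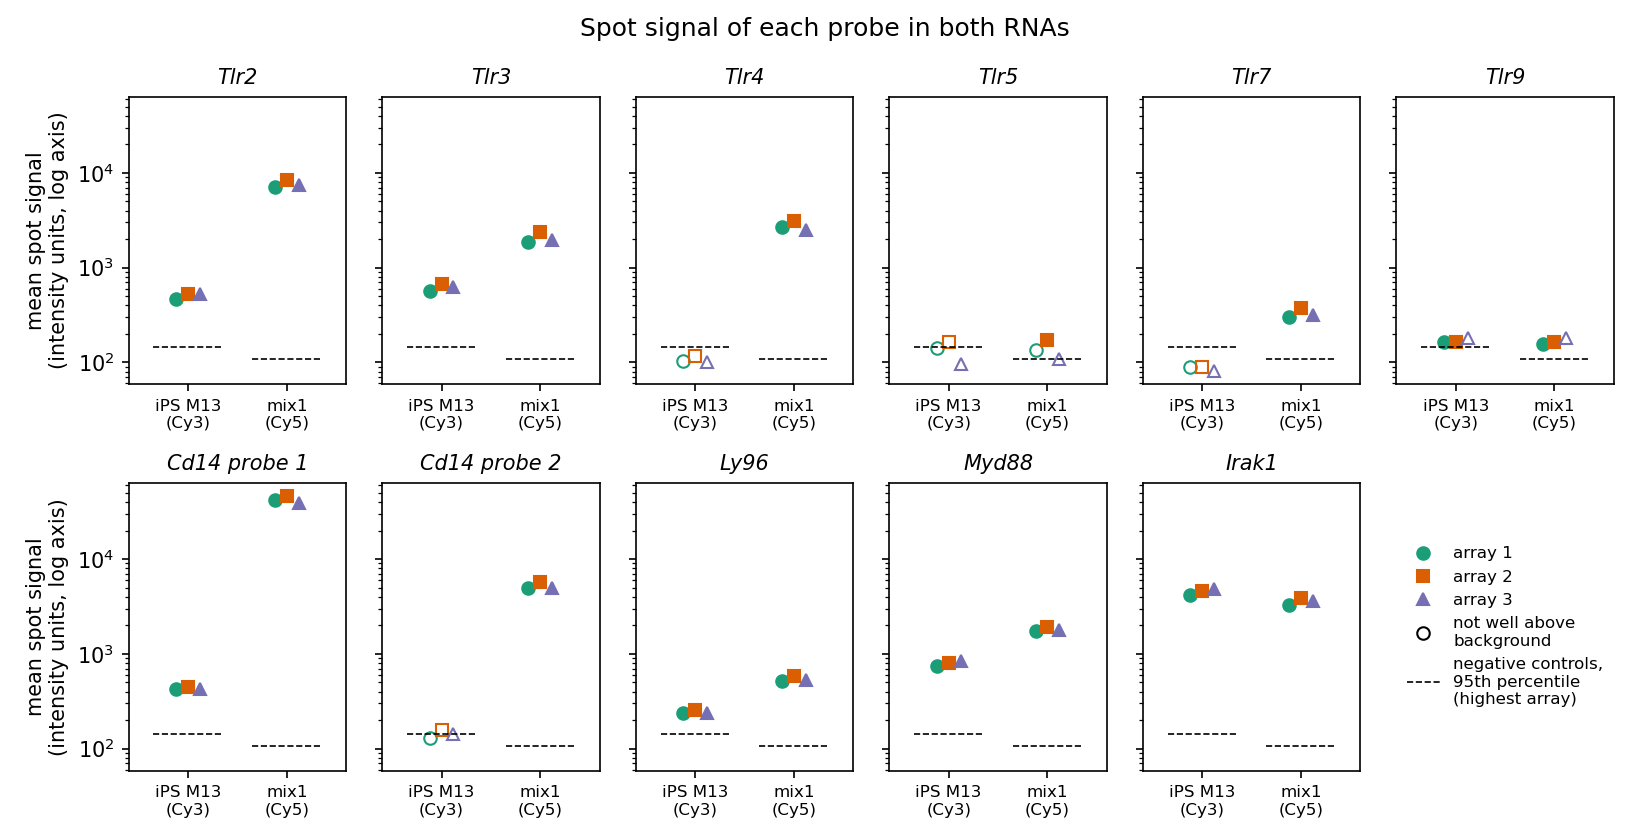
Mean spot signal in intensity units (log axis) of each probe in iPS M13 (left, Cy3) and mix1 (right, Cy5), with 1 point for each of the 3 arrays; open points were not well above background and dashed lines are the highest 95th percentile of negative control spots in that channel. The first Cd14 probe, Tlr2, Tlr3, Ly96 and Myd88 are filled in both RNAs and lower in iPS M13, the second Cd14 probe, Tlr4 and Tlr7 are open in iPS M13, and Tlr5 and Tlr9 lie near the dashed lines in both.

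Among the receptors of nucleic acids, Tlr3, which senses double-stranded RNA, was lower but clearly measured in iPS M13. It read 564, 675 and 623 units in iPS M13, against 1864, 2378 and 1974 in mix1. The groups did not overlap, at a log2 ratio of -2.48 ± 0.02 (SD, n = 3, limma adjusted p = 8.90e-07). Tlr7, which senses single-stranded RNA, read 89.7, 88.8 and 80.7 units in iPS M13, against 302, 374 and 317 in mix1. All 3 iPS M13 values lay below the 95th percentile of the negative controls. Tlr7 was therefore given as at least 2.69-fold lower (limma adjusted p = 3.36e-05, lower on 3 of 3 arrays), with a measured log2 ratio of -2.28 ± 0.17 (SD, n = 3).

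Tlr9, which senses DNA with unmethylated CpG, and the flagellin receptor Tlr5 were dim in both RNAs. Tlr9 read 165, 163 and 183 units in iPS M13, against 157, 166 and 181 in mix1, and was well above background on arrays 1 and 2 in both RNAs and on array 3 in neither. Tlr5 read 141, 164 and 96.4 units in iPS M13, against 136, 173 and 107 in mix1, and passed as well above background only in mix1 on array 2. The raw signals of the RNAs overlapped for both genes. Measured log2 ratios were -0.32 ± 0.10 for Tlr9 and -0.41 ± 0.15 for Tlr5 (SD, n = 3 each), below 0 on 3 of 3 arrays. With the filter on dim probes removed, the limma adjusted p was 0.00401 for Tlr9 and 0.00569 for Tlr5, and neither reached the 2-fold needed for a call. The ratio of Tlr9 turned to 0.052 with the trend on probe base composition taken off, so no direction is given for it.

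Myd88, the adaptor shared by most of the receptors and by interleukin 1 receptors, was lower in iPS M13. It read 745, 799 and 843 units in iPS M13, against 1749, 1911 and 1805 in mix1. The RNAs were separated on every array, at a log2 ratio of -1.95 ± 0.05 (SD, n = 3, limma adjusted p = 3.58e-06). Irak1, a kinase that acts just downstream of MYD88, gave raw signals that were higher in iPS M13, at 4169, 4647 and 4842 units, against 3289, 3877 and 3584 in mix1. After loess normalization its log2 ratio was -0.46 ± 0.02 (SD, n = 3, limma adjusted p = 2.94e-05), below the 2-fold needed for a call. The sign of Irak1 turned with the scaling, to 0.39 under median centring, 0.33 without normalization within arrays and 0.054 with the trend of ratios on probe base composition taken off, so no direction is given for it.

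**Figure D2:**
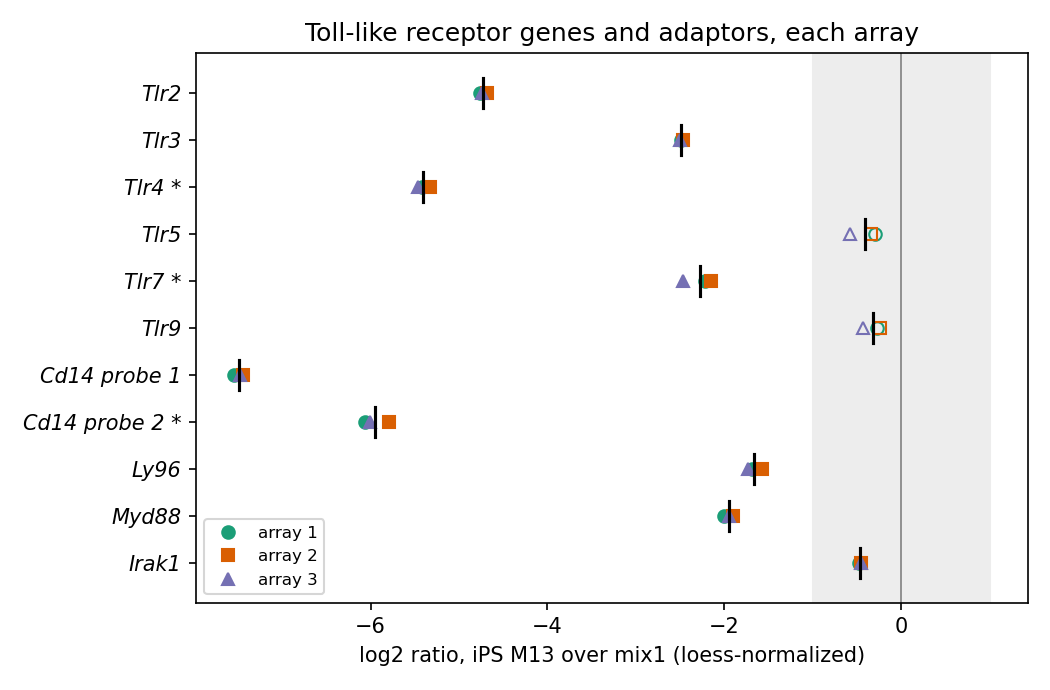
Log2 ratio of iPS M13 over mix1 (x axis) for each probe on each of the 3 arrays, with a bar at the mean; open points were not tested, an asterisk marks probes with iPS M13 well above background on 0 arrays, and grey covers differences under 2-fold. The points of a probe lie close together beside the distance between Cd14 at -7.49 and Irak1 at -0.46.

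Scaling decided the balance of calls over the whole array but not the calls of these genes. The median log2 ratio of all tested genes moved up by 0.60 under median centring, by 0.55 without normalization within arrays and by 0.31 in the processed signals. In these settings 67.2%, 65.1% and 56.6% of all calls were higher in iPS M13, against 42.5% after loess. The 7 genes kept their lower call in each of them. Tlr4 and Tlr7 moved most, to log2 ratios of -7.34 and -4.02 in the processed signals. Without a dye swap, the dye and the RNA cannot be told apart.

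**Figure D3:**
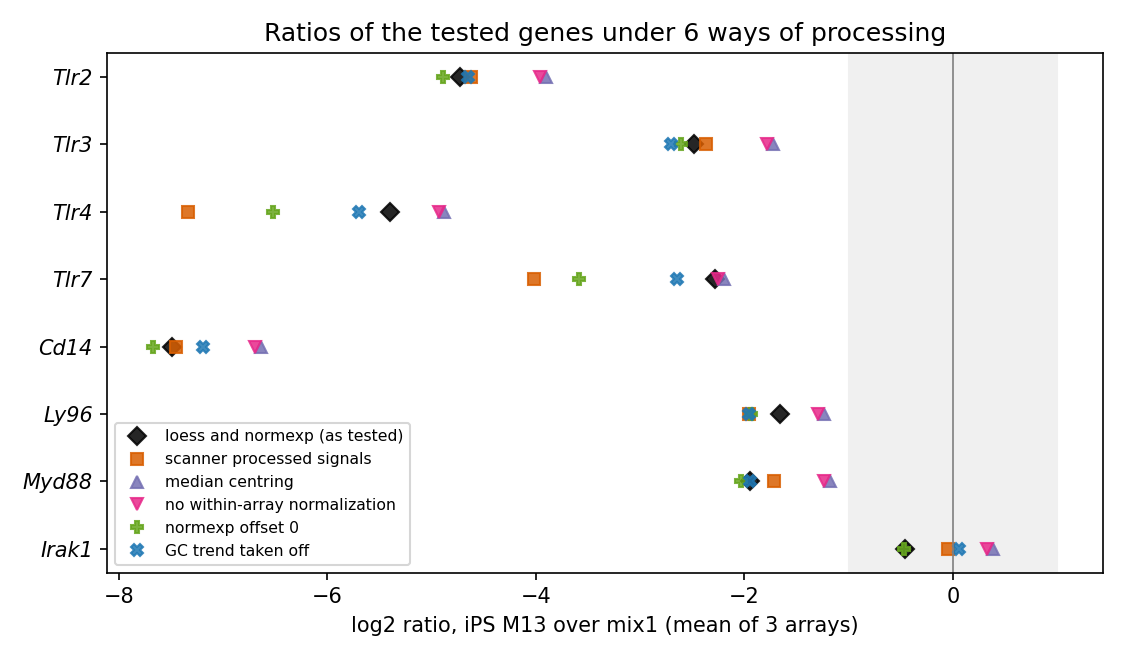
Log2 ratio of iPS M13 over mix1 (x axis, mean of 3 arrays) of the 8 tested genes under 6 ways of processing, with grey covering differences under 2-fold. Every symbol of the 7 lower genes lies left of the grey band, while Irak1 stays inside it and crosses 0.

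The wider pathway was described from lists of 100 other genes, of which 86 had a probe and 71 were tested. Of these 71 genes, 46 were lower in iPS M13 and 3 higher, where 25.4% of all genes tested were lower and 18.8% higher. Their median log2 ratio was -2.01, against -0.02 over all genes tested. In 18 of the 71, iPS M13 was well above background on 0 arrays, so that they entered through mix1. With both RNAs required above background, the lower calls were 2 receptor helpers, 1 adaptor, 0 kinases and ubiquitin ligases, 1 interleukin 1 family receptor and 5 inducible targets, each over 1.5 times fewer than the counts given for these lists. Over all tested genes measured in both RNAs, 21.8% were lower. Members of these lists were chosen with earlier results in view.

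Receptor helpers had 5 of 7 tested genes lower and 0 higher, at a median of -1.99. The lower ones included the integrin chain Itgb2 (-5.99 ± 0.09) and the lipopolysaccharide-binding protein gene Lbp (-3.67 ± 0.01). The scavenger receptor gene Cd36 was at least 2.88-fold lower and Unc93b1, which carries nucleic acid receptors to endosomes, at least 3.09-fold lower. Among other adaptors 2 of 3 were lower and 0 were higher. Tyrobp of myeloid cells, which is also among the macrophage markers below, gave -6.91 ± 0.04 by its brightest probe. Its other probe gave -3.19 ± 0.08, with iPS M13 above background on 0 arrays. Sarm1 gave -1.38 ± 0.23, with iPS M13 above background on 1 array, and Tirap was not called (0.07 ± 0.09). Interleukin 1 family receptors, which share MYD88, had 3 of 4 lower and 0 higher. The decoy receptor gene Il1r2 was at -3.60 ± 0.02 and Il1rl2 was at least 8.34-fold lower. Il1r1 was at least 8.79-fold lower by its brightest probe and at least 2.15-fold lower by its other.

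The kinases and ubiquitin ligases of the pathway were mostly not called, as Irak1 was not. Of 21 tested, 3 were lower, 1 was higher and 17 were not called, and their median of 0.00 lay close to that of all genes. The kinase gene Map3k8 was at least 20.8-fold lower, Btk of B and myeloid cells at least 3.71-fold lower and Ikbke at least 2.40-fold lower. Mapk8, the gene of the kinase JNK1, was higher at 1.07 ± 0.03, while its other probes, at 0.64 and 0.23, were not called. Other probes of Peli1 (1.43) and Ube2n (1.31) reached a higher call that the brightest probe did not, and another probe of the inhibitor gene Tollip (-0.37) missed the lower call of its brightest.

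Inhibitors had 6 of 7 lower and 1 higher, at a median of -3.58. Il1rl1, a receptor gene of the interleukin 1 receptor family, was at least 915-fold lower by its brightest probe. Its other probe gave a bound of only 5.89-fold. The phosphatase gene Dusp1 (-7.38 ± 0.07) and the NF-kappaB inhibitor gene Nfkbia (-3.58 ± 0.01) were lower too. So was Nfkbie, with iPS M13 above background on 2 arrays. The 1 higher gene was Sigirr (2.43 ± 0.02), an orphan receptor that restrains Toll-like receptor signalling. Transcription factors had 10 of 12 lower and 1 higher, at a median of -2.28, with Fos at -7.19 ± 0.04, Irf5 at -4.20 ± 0.32 (iPS M13 above background on 2 arrays), Jun at -3.81 ± 0.01 and Nfkb1 at -3.10 ± 0.01. The higher one was the NF-kappaB subunit Rel (1.18 ± 0.02). All 16 tested inducible targets were lower, at a median of -5.60. In 8 of them iPS M13 was above background on 0 arrays, so that only a lower call was open to those. The lower targets included the chemokine genes Ccl2 (-10.87 ± 0.07, with iPS M13 above background on 1 array) and Cxcl1 (-8.87 ± 0.04), with Cxcl2 at least 429-fold and Ccl20 at least 59.3-fold lower. Another 5 targets, Il10, Il12b, Ccl5, Ifnb1 and Nos2, were too dim to be tested. Their measured log2 ratios ran from -0.20 (Nos2) to 0.29 (Ccl5).

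**Figure D4:**
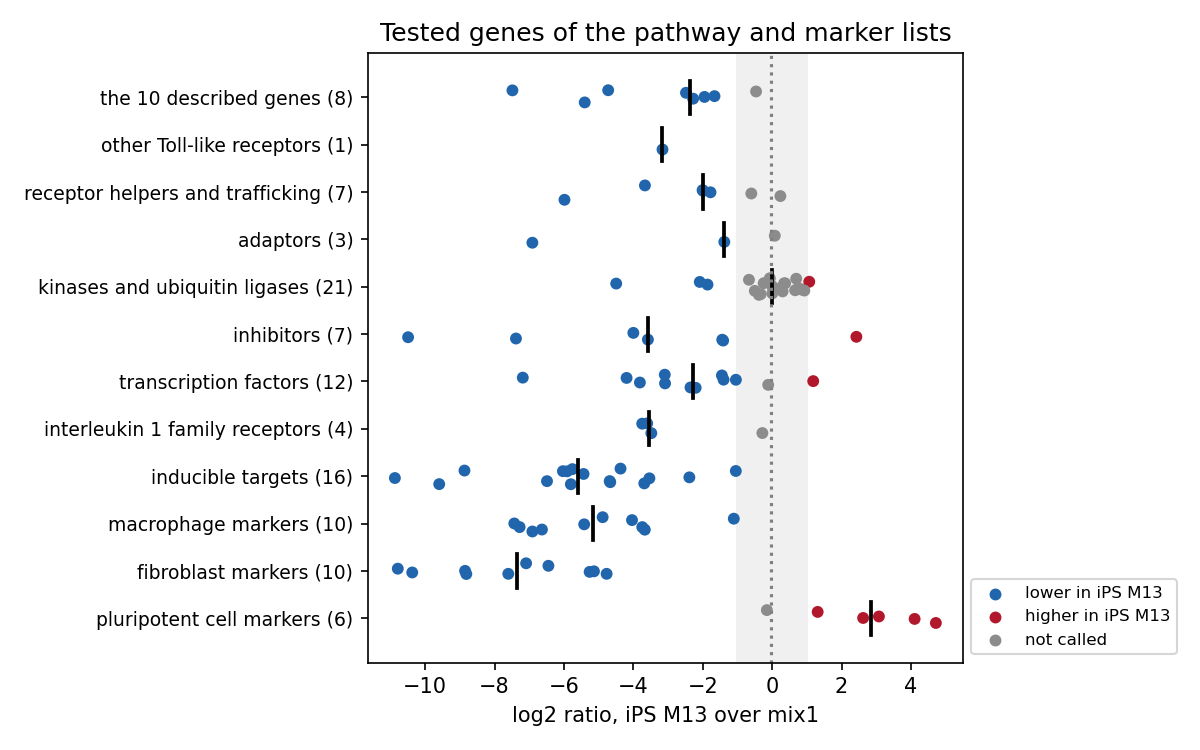
Log2 ratio of iPS M13 over mix1 (x axis) of each tested gene in the set of 10, the pathway lists and the marker lists (number tested in brackets), with a bar at each median, a dotted line at the median of all tested genes and grey covering differences under 2-fold. Kinases and ubiquitin ligases centre on 0, with 17 of 21 not called, whereas all 16 tested inducible targets lie to the left.

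Cell type markers differed in both directions, by list. All 10 tested macrophage markers were lower in iPS M13, at a median of -5.15, where 25.4% of all genes tested were lower. They included Lyz2 (-7.43 ± 0.06), Tyrobp, Ctss (at least 91.8-fold lower) and Aif1 (at least 64.6-fold lower). In 4 of the 10, iPS M13 was above background on 0 arrays, so that only a lower call was open to them. The summed spot signal of all 10 above local background was 5196 to 5591 units in iPS M13, against 193096 to 224212 in mix1. All 10 fibroblast markers were lower too, at a median of -7.35, led by Col3a1 (-10.79 ± 0.16), Dcn (-10.37 ± 0.10), Col1a2 (-8.81 ± 0.17) and Postn (at least 259-fold lower). In 3 of these 10, iPS M13 was above background on 0 arrays. The summed signal of the 10 fibroblast markers was 17504 to 18999 units in iPS M13, against 1.44e+06 to 1.57e+06 in mix1. The macrophage markers Itgam and Cd163 were too dim to be tested, as were the 9 lymphocyte and granulocyte markers with a probe, such as Cd3e and Mpo. Of 10 pluripotent cell markers listed, 6 had a probe and were tested, and 5 were higher. These included Epcam (4.72 ± 0.13, with mix1 above background on 2 arrays), Dnmt3b (4.10 ± 0.08), Cdh1 (3.08 ± 0.07) and Sox2 (2.62 ± 0.07). Lin28a, measured in both RNAs, was not called (-0.15 ± 0.04). Of 2 tested endothelial markers Tek was at least 3.46-fold higher and 0 were lower. The part of each cell type in the ratios of the receptor genes was not tested, nor was hybridisation of mouse feeder RNA to the rat probes.

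Promoter sequence was available for 9 of the 10 genes, as the 250 bases before the start of each gene in RefSeq's rat build GRCr8. Windows of the lipopolysaccharide receptor genes Cd14 and Tlr4, which were lower, and of Irak1, which was not called, are shown. The letters run 5′ to 3′ along each gene, and capitals mark GAGGAA on either strand, the core bound by the myeloid transcription factor PU.1. They lie at chr18:28611159-28611408 on the minus strand, chr5:85160997-85161246 on the plus strand and chrX:156929826-156930075 on the minus strand.
Cd14: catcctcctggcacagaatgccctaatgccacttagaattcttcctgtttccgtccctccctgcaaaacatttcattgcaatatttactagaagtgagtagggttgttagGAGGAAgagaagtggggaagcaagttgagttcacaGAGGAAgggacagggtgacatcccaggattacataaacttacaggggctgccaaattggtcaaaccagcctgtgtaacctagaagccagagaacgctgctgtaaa
Tlr4: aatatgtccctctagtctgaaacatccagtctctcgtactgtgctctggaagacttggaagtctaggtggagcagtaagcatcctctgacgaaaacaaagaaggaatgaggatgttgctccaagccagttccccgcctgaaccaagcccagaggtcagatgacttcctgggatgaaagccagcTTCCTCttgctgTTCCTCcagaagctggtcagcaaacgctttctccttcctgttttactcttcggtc
Irak1: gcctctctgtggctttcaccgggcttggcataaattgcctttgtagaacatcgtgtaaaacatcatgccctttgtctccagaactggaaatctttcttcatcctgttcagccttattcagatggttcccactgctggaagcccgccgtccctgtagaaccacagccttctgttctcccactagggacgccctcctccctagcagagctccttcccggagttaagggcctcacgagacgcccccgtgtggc

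The GAGGAA letters occurred on either strand in 5 of the 9 windows, those of Cd14 and Tlr4 with 2 matches each and those of Tlr3, Tlr7 and Tlr9 with 1 each. Of all 33469 windows, 23.3% held them. A GC box, GGGCGG, lay in the windows of Tlr2 and Myd88, against 30.5% of all windows. Letters of the NF-kappaB consensus lay in those of Tlr2, Tlr3 and Tlr7, against 7.22% of all. CpG counts were 2 for Cd14, 5 for Tlr4, 0 for Tlr7, 12 for Tlr2, 12 for Myd88 and 9 for Irak1, where the median over all windows was 5. A match is a run of letters and not a measured site.

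Precision is set by having 3 arrays, which shared 1 slide and 1 scan date. On each, at least 53.5% of all probes were well above background in iPS M13, and at least 52.4% in mix1. Whether the 3 samples were cultured separately is not in the labels, so the p-values reflect the spread among them alone, which may be technical.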

How the data were processed

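Spot intensities were deposited as output of Agilent Feature Extraction 9.5.3.1, per the file headers, and the mean spot signals are without background subtraction. The processed signals are not the same values, and what was taken off them is not given here. Tlr7 on array 1 had mean signals of 89.7 units in iPS M13 and 302 in mix1, but a scanner log2 ratio of -4.03. Log10 ratios in the deposited files are Cy5 over Cy3 of processed signals. The authors' value table was read as log2 ratios of Cy3 to Cy5, since its columns had slopes of -3.32 on those log10 ratios. Its column medians were -0.0413, -0.0282 and -0.0286. Over the tested genes its median log2 ratio was 0.291269, against 0.291268 in the processed signals, so no overall shift from those signals is seen. How the scanner software scaled the processed signals is not given here.

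In limma 3.58.1 under R 4.3.3, signals were corrected by normexp (offset 50) and normalized by loess within arrays, with control spots at weight 0. Outlier-flagged spots were left out and spots of a probe averaged. Probes well above background on all 3 arrays in 1 of the channels were kept, and the brightest kept probe stood for a gene. The mean log2 ratio was tested against 0 with lmFit and eBayes, adjusted by Benjamini-Hochberg over 20342 genes. Since mix1 is 1 control RNA, the test leaves out its spread. An exact sign-flip test of 3 arrays cannot go below p = 0.25 and was not used. The steps were tested on simulated data in which few spots changed, as many up as down. In these arrays 44.2% of tested genes were called, so the simulation does not cover the effect of scaling. List symbols were updated through RefSeq's GRCr8 table, which matched 10727 probes by accession.

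All genes of the set are named, and from each list up to 4 called genes per direction with the largest ratios. List genes given only as dim or not called were named after their values were seen. Members and lists were chosen with earlier results of these data known. Alternatives covered background correction, normalization, filters, probe choice, base composition and left-out arrays.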

Additional observations from a re-analysis of the deposited data

How the results depend on the processing

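The lower call of Tlr2, Tlr3, Cd14, Ly96 and Myd88 held in all 14 alternatives, and that of Tlr4 and Tlr7 in all 13 that kept them, since both leave when each RNA must be above background (5 genes lower then). These alternatives are not independent. Scaling of intensities between arrays, changed filters on dim probes and keeping flagged spots left the ratios of these genes as they were. That outcome was fixed in advance, so these settings are no check on the ratios. The scaling acts on intensities alone, filters only select probes, and no spot of these genes was flagged. The authors' value table repeated those of the processed signals. Without 1 array, log2 ratios ran from -7.51 to -7.46 for Cd14 and from -2.34 to -2.18 for Tlr7. Irak1 turned to 0.39 under median centring, 0.33 without normalization within arrays and 0.054 with the trend on base composition taken off, and Tlr9, not tested, to 0.052 in the last. The count of all genes called higher, 3819, became 6319 in the processed signals and the authors' value table, 7409 under median centring and 7005 without normalization. That of pathway genes called higher, 3, became 8, 10 and 8, and 8 in the authors' table. With both RNAs above background, 22 pathway genes were lower in place of 46. Genes that entered through mix1 leave in that setting. Among them are the 18 with iPS M13 above background on 0 arrays, to which only a lower call was open. Of all 15785 genes tested in that setting, 3451 were lower. No paired analysis was possible because the replicate numbers run within 1 group, beyond the pairing of both RNAs on each array that the ratio already holds. Signal over background limits Tlr4 and Tlr7 to bounds in iPS M13, and Tlr5 and Tlr9 to no call.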
